A study of Mus musculus with 6 samples.

Results

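The MAP kinase phosphatase genes Dusp1, Dusp2, Dusp4, Dusp5, Dusp6, Dusp10 and Dusp16 and the mRNA decay factor genes Zfp36, Zfp36l1 and Zfp36l2 were followed in sorted skin fibroblasts. Members were chosen by name, with earlier results of these data known, so counts among them are no independent support. All 10 genes were measured, by 15 of the 45037 probe sets that are not controls, each named in the platform annotation for a single gene of the list. The comparison is between dermal fibroblasts of dysplastic ears from transgenic mice (CAF, labelled strain HPV16) and of normal ears from non-transgenic mice (NDF, labelled strain FVBn). In the K14-HPV16 line the papillomavirus genes are driven by a keratin promoter of basal keratinocytes, so the fibroblasts themselves are not the cells targeted by the transgene. All animals were male and 4 months old, and in both groups PDGFRα-positive cells were sorted from ear suspensions. Each group had 3 arrays, described as biological repetitions. Ears of 15 mice of each genotype were used, with no word on how they were divided, so a p-value here measures the spread between these samples, which may be technical. Values are RMA expression values on a log2 scale, where a step of 1 is a doubling of signal and dim genes are pressed together near the bottom. They do not show transcript numbers. For bulk samples a change in the share of a cell type and a change in RNA per cell cannot be told apart.

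MAP kinases (ERK, JNK and p38) carry growth factor and stress signals into the nucleus once a threonine and a tyrosine in their activation loop are phosphorylated. Dual-specificity phosphatases of the Dusp family remove both phosphates, and several of their genes are themselves induced by the kinases they switch off, which closes a negative feedback loop. Tristetraprolin, the product of Zfp36, and its relatives bind AU-rich elements in the tails of cytokine mRNAs and recruit the enzymes that shorten the poly(A) tail, which limits how long inflammatory transcripts last. In skin, loss of tristetraprolin is known to leave inflammation unchecked.

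The decay factor gene Zfp36 and the ERK phosphatase gene Dusp5 had the largest differences of the 10 genes, 1.79 and 2.05 log2 units higher in CAF. Dusp6, Dusp4, Dusp1 and Zfp36l1 were also higher on every CAF array than on any NDF array, by 1.03, 0.86, 0.69 and 0.36. Dusp10 was the single member with every CAF array below every NDF array, by -1.005, and Dusp2, Dusp16 and Zfp36l2 overlapped. None of the 10 passed an adjusted p of 0.05 in limma (moderated linear models over 18193 genes, Benjamini-Hochberg adjustment), a threshold that 0.517% of all genes passed. At an unadjusted p under 0.05, 5 members were higher and 1 was lower in CAF, where 4.93% of all genes were higher and 4.02% lower. The arrays separated with CAF above for 6 of the 10 members and for 6.78% of all genes, and with CAF below for 1 member and for 8.66% of all genes. The median difference was 0.53 over the 10 members and -0.04 over all genes. Immediate-early genes, leukocyte, keratinocyte and endothelial markers were higher on the same CAF arrays, with levels given further on, and their part in these differences was not tested.

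**Figure D1:**
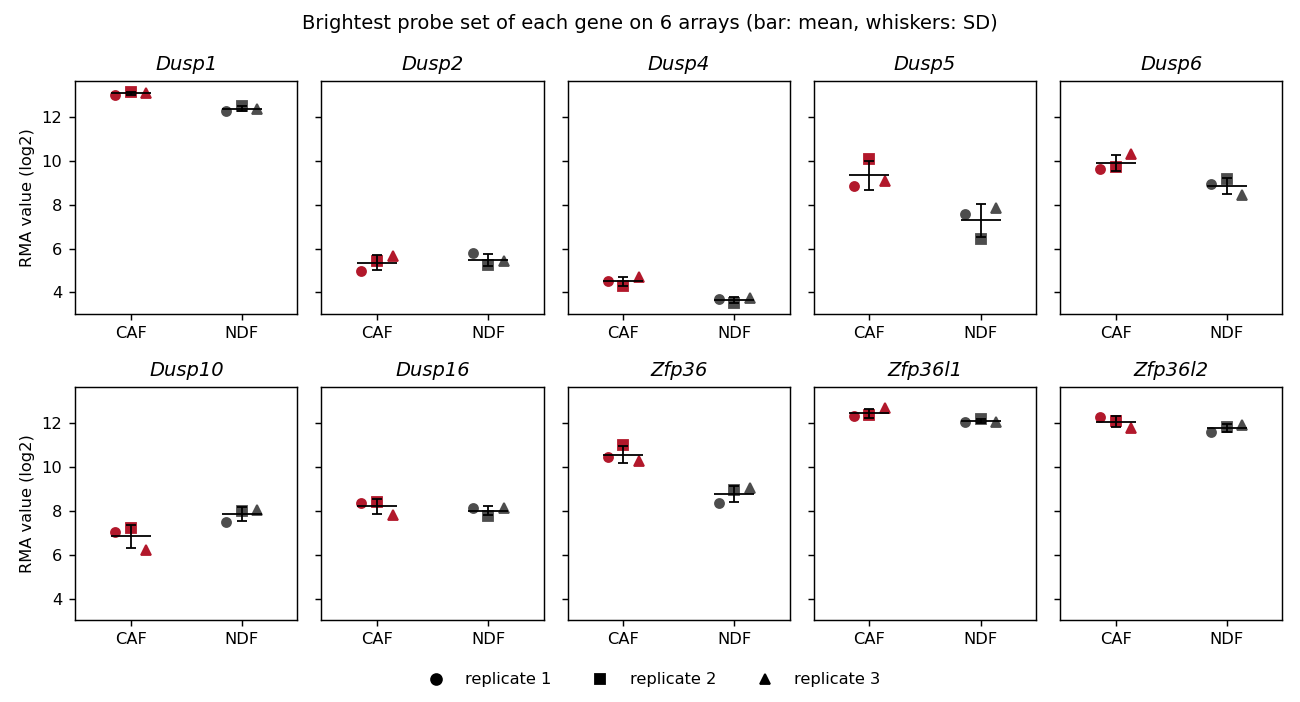
RMA values (log2, vertical axis) of the brightest probe set of each gene on the 3 CAF arrays (left, red) and the 3 NDF arrays (right, grey), with symbols for replicates, bars for means and whiskers for SD. For Dusp1, Dusp4, Dusp5, Dusp6, Zfp36 and Zfp36l1 the CAF points all lie above the NDF points, for Dusp10 they all lie below, and for Dusp2, Dusp16 and Zfp36l2 they overlap.

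Promoter sequence is shown for 4 members, the founding phosphatase gene Dusp1, the genes with the largest differences Dusp5 and Zfp36, and Dusp10, whose CAF arrays lay below the NDF arrays. Each run is the 250 bases before the transcription start in RefSeq (build GRCm38.p6), 5′ to 3′ on the gene's strand. Capitals mark matches to any of the motifs searched.
Dusp1 (chr17:26508473-26508722, minus strand): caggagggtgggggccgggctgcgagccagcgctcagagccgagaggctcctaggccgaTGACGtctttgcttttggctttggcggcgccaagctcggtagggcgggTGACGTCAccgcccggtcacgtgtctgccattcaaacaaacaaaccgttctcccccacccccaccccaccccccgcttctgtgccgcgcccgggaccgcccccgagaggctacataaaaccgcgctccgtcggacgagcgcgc
Dusp5 (chr19:53528895-53529144, plus strand): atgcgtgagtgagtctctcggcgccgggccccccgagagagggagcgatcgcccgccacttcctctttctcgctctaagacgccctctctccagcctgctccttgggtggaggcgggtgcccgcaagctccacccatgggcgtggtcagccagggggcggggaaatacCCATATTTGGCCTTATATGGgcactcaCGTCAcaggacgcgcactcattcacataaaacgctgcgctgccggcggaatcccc
Zfp36 (chr7:28379229-28379478, minus strand): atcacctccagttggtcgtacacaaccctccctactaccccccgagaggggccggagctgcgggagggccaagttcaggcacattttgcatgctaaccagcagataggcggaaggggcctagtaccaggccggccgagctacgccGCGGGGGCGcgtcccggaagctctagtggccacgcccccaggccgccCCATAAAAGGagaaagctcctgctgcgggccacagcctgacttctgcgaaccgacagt
Dusp10 (chr1:184034131-184034380, plus strand): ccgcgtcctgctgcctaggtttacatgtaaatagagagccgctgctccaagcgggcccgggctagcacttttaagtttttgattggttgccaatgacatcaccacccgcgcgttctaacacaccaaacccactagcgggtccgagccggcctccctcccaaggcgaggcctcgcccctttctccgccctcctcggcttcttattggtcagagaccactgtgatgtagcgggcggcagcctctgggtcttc

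Searched on both strands were the cyclic AMP response element TGACGTCA and its core TGACG, which lies inside it, the AP-1 site TGANTCA, the Egr site GCGNGGGCG, the TATA box TATAAA, the CArG box bound by serum response factor (SRF) and an NF-κB consensus. Of the 10 members, 8 had a promoter entry, and Dusp4 and Zfp36l2 are named only. Dusp1 held the whole cyclic AMP response element from base -143 to -136 before the start, as did 1.55% of 32841 promoter entries, and another core at -191 to -187. Dusp5 held CArG boxes side by side, at -82 to -73 and at -72 to -63, and a core of the cyclic AMP element at -55 to -51. Zfp36 held a CArG box at -58 to -49 and an Egr site at -105 to -97. CArG boxes were found in 1.47% of all entries and Egr sites in 4.70%. The core was matched in Dusp1, Dusp5 and Dusp16 and in 17.8% of all entries, and the Egr site also in Dusp2 and Dusp16. In Zfp36l1 an AP-1 site and a TATA box were matched, which 6.75% and 12.4% of all entries held. The NF-κB consensus was matched in 0 of the 8 members and in 7.25% of all entries, and none of the motifs was matched in Dusp6 or Dusp10. The members' promoters had a median GC content of 64.4%, against 52.4% over all entries. These matches describe letters and not bound sites.

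Among the inducible nuclear phosphatases, Dusp1 acts mainly on p38 and JNK and is the classic brake of macrophage and fibroblast stress responses. Its values were 12.98, 13.14 and 13.11 on the CAF arrays, against 12.27, 12.49 and 12.38 on the NDF arrays. The groups did not overlap, and both varied little, with means of 13.07 ± 0.08 in CAF and 12.38 ± 0.11 in NDF (SD, n = 3 each). The difference was 0.69 ± 0.17 (SE), with a 95% interval of 0.30 to 1.09 and a limma adjusted p = 0.199. Dusp1 was among the brightest genes, on arrays whose highest value was 13.86. With an intensity-dependent prior variance in limma the adjusted p was 0.0170, the only 1 of 20 alternatives in which Dusp1 passed. It was 0.439 with the replicate block and 0.157 to 0.650 when each array was left out.

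Dusp5 encodes a nuclear phosphatase that acts on ERK and anchors it in the nucleus. It was at 8.85, 10.09 and 9.09 on the CAF arrays, against 7.59, 6.44 and 7.85 on the NDF arrays. CAF replicate 2 was the highest and NDF replicate 2 the lowest, and the groups did not overlap. The means were 9.34 ± 0.66 in CAF and 7.30 ± 0.75 in NDF (SD, n = 3 each), a difference of 2.05 ± 0.47 (SE) or 4.14-fold on this scale. With this spread the limma adjusted p was 0.177, and the 95% interval ran from 0.93 to 3.17. Of all genes tested, 1.25% had a larger difference. Without NDF replicate 2 the difference was 1.62.

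Dusp4, a nuclear phosphatase with a wider choice of substrates, was dim, below the median probe set level of 4.84 on every array. Its CAF values were 4.54, 4.29 and 4.71, and its NDF values were 3.71, 3.51 and 3.75. All CAF arrays were above all NDF arrays, by 0.86 ± 0.19 on average (SE, limma adjusted p = 0.161). The adjusted p was 0.0381 with array quality weights, the only 1 of 19 alternatives in which Dusp4 passed. It was 0.325 with the replicate block and 0.142 to 0.538 when each array was left out. Dusp2, which is best known from activated leukocytes, was at 4.98, 5.42 and 5.67 in CAF, against 5.79, 5.23 and 5.42 in NDF. Its groups overlapped throughout, and the difference of -0.12 had a 95% interval of -0.72 to 0.48. Without CAF replicate 1 or NDF replicate 1 its difference was 0.07 or 0.03, and without CAF replicate 3 or NDF replicate 2 it was -0.28 or -0.25.

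Dusp6, the cytoplasmic phosphatase that is selective for ERK and whose transcript is widely used as a readout of ERK activity, was at 9.63, 9.74 and 10.33 on the CAF arrays and at 8.96, 9.18 and 8.46 on the NDF arrays. CAF replicate 3 was the highest and NDF replicate 3 the lowest, with a gap between the groups. The difference was 1.03 ± 0.28 (SE) or 2.04-fold, with a 95% interval of 0.36 to 1.70 and a limma adjusted p = 0.271. The highest CAF array of Dusp6 was therefore not the highest CAF array of Dusp5.

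The phosphatases that prefer p38 and JNK are encoded by Dusp10 and Dusp16. Dusp10 was at 7.06, 7.21 and 6.23 on the CAF arrays, against 7.47, 7.99 and 8.06 on the NDF arrays. Every CAF array was lower, with CAF replicate 3 lowest, and the means were 6.83 ± 0.52 in CAF and 7.84 ± 0.32 in NDF (SD, n = 3 each). The difference of -1.005 ± 0.31 (SE) had a 95% interval of -1.75 to -0.26 and a limma adjusted p = 0.362. Of all genes, 2.29% had a more negative difference. Without CAF replicate 3 it was -0.71. A dimmer probe set of Dusp10, at 4.51 in CAF and 4.58 in NDF on average, differed by -0.06, and the mean of both probe sets by -0.53. Dusp16, a brake on JNK, was at 8.35, 8.42 and 7.83 in CAF, against 8.11, 7.77 and 8.12 in NDF, and the groups overlapped. Its difference was 0.20 (95% interval -0.35 to 0.75). It was 0.39 without CAF replicate 3, and 0.13, 0.09 and 0.08 without CAF replicate 1, CAF replicate 2 and NDF replicate 2. The other probe set of Dusp16 spread widely within both groups, from 5.12 to 6.93 in CAF and from 4.15 to 6.08 in NDF, with a difference of 0.78.

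Zfp36, the tristetraprolin gene, was the member closest to the threshold. Its values were 10.45, 10.99 and 10.25 on the CAF arrays, against 8.35, 8.96 and 9.02 on the NDF arrays. The lowest CAF array was more than 1 log2 unit above the highest NDF array, and the means were 10.56 ± 0.38 in CAF and 8.78 ± 0.37 in NDF (SD, n = 3 each). The difference was 1.79 ± 0.28 (SE) or 3.45-fold on this scale, with a 95% interval of 1.11 to 2.46, and limma gave an adjusted p = 0.0633. By p-value Zfp36 ranked 129 of 18193 genes, and 1.57% of genes had a larger difference. The adjusted p was under the threshold with equal array medians, array quality weights, an intensity trend, the mean of all probe sets of each gene, and without CAF replicate 3 (0.0459, 0.0134, 0.0344, 0.0441 and 0.0479). It was between 0.134 and 0.226 without any other single array.

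Zfp36l1 and Zfp36l2 encode relatives with the same kind of zinc fingers, known for roles in development and in blood cells. The brightest probe set of Zfp36l1 was at 12.32, 12.36 and 12.69 in CAF, against 12.05, 12.20 and 12.05 in NDF. All CAF arrays were above, but the lowest was close to the highest NDF array, and the difference of 0.36 had a 95% interval of -0.08 to 0.80 (limma adjusted p = 0.674). Its other probe set was dim, overlapped between the groups and differed by 0.82. Zfp36l2 was at 12.30, 12.08 and 11.80 in CAF, against 11.59, 11.83 and 11.90 in NDF, and the groups overlapped. That probe set of Zfp36l2 differed by 0.29 (95% interval -0.20 to 0.77), and its 2 dimmer probe sets by -0.09 and -0.01. Without CAF replicate 1 the difference of the brightest was 0.17. Taking Zfp36 minus each relative on every array, the CAF value of this contrast was higher than the NDF value by 1.43 against Zfp36l1 and by 1.5 against Zfp36l2. Zfp36l1 minus Zfp36l2 differed by 0.07 between the groups. An exact two-sided permutation test over the 6 arrays gave p = 0.1 for the first pair of contrasts, the smallest that 3 against 3 allows, and p = 0.9 for the last. Adjusted over the 3 contrasts, the exact p-values were 0.15, 0.15 and 0.9. This test could not pass 0.05 with 3 against 3 arrays, so it does not settle whether the relatives differ.

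**Figure D2:**
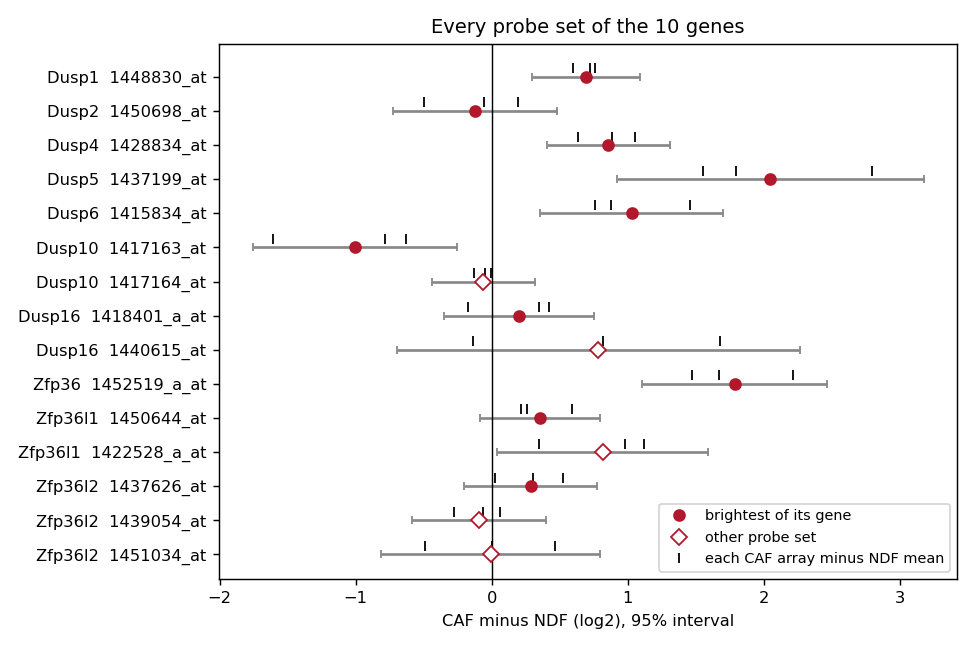
CAF minus NDF differences (log2, horizontal axis) of all 15 probe sets, with 95% intervals from limma fitted on every probe set. Filled circles are the brightest probe set of each gene, open diamonds the others, and ticks each CAF array minus the NDF mean. Zfp36 and Dusp5 lie farthest to the right at 1.79 and 2.05, and Dusp10 farthest to the left at -1.005.

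Probe sets of one gene were not interchangeable, as the plot of all probe sets shows. With limma fitted on every probe set, 0 of the 15 passed the threshold, against 0.162% of all probe sets. At an unadjusted p under 0.05 there were 7, and the share of all probe sets at that level was not counted. Over genes that share was 4.93% higher and 4.02% lower in CAF. Those 7 were the single probe sets of Dusp1, Dusp4, Dusp5, Dusp6 and Zfp36, the brighter probe set of Dusp10 and the dimmer of Zfp36l1. A single probe set each was read for Dusp1, Dusp2, Dusp4, Dusp5, Dusp6 and Zfp36.

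Within the CAF group the members were not ordered alike. Of the CAF arrays, replicate 2 was highest for Dusp1, Dusp5, Dusp10, Dusp16 and Zfp36, replicate 3 for Dusp2, Dusp4, Dusp6 and Zfp36l1, and replicate 1 for Zfp36l2. Mean values of the neutrophil, endothelial, T cell and mast cell marker lists were also highest on CAF replicate 2, at 8.69, 7.48, 6.19 and 6.25, and that of the macrophage and pan-leukocyte list on CAF replicate 3, at 7.59. The keratinocyte list was lowest on CAF replicate 2, at 8.83, and highest on CAF replicate 1, at 10.08. The immediate-early list was also lowest on CAF replicate 2, but by little, at 9.94. Whether these orders are related was not tested.

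Genes around the phosphatases are given from lists written from textbook knowledge. The remaining MAP kinase phosphatase genes Dusp7, Dusp8 and Dusp9 had 0 calls in either direction and a median difference of -0.55. Dusp7, which acts on ERK in the cytoplasm, was at 9.64, 9.33 and 9.70 in CAF, against 10.07, 10.18 and 10.25 in NDF, a difference of -0.61 (limma adjusted p = 0.331). Dusp8, a JNK and p38 phosphatase, differed by -0.55 (adjusted p = 0.429), with every CAF array below, and Dusp9 by 0.25 (adjusted p = 0.931). The other probe sets of Dusp7 differed by -0.68 and -0.49, and those of Dusp8 by -1.43 and 0.15. Of 12 atypical dual-specificity phosphatase genes none passed in limma (median -0.15). At an unadjusted p under 0.05 there was 1, Dusp18, which was lower, at 6.63 ± 0.26 in CAF and 7.72 ± 0.30 in NDF (SD, n = 3 each, adjusted p = 0.15). Its other probe set differed by 0.09. Dusp23 and Dusp28 differed by -0.34 and 0.44.

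Other brakes of the ERK route, the Sprouty and Spred genes with Errfi1, Lrig1 and Sh2b3, had no calls among 10 genes and a median of -0.02. Errfi1, an inhibitor of the EGF receptor, was at 13.03, 13.15 and 13.22 in CAF, against 12.13, 12.79 and 12.45 in NDF, a difference of 0.68 (limma adjusted p = 0.378), while a dimmer probe set gave 1.52. Spry4 differed by 0.79 (adjusted p = 0.656) and Spry2 by 0.38 (adjusted p = 0.768). Of 9 ERK cascade genes 1 rose, 0 fell, and the median was -0.05. It was Map3k8, the kinase Tpl2 that links Toll-like and TNF receptors to ERK. Map3k8 had 7.46, 7.43 and 7.12 in CAF, against 5.47, 6.02 and 5.26 in NDF, a difference of 1.76 ± 0.25 (SE, limma adjusted p = 0.0461). Its groups were far apart, but the call was lost in 9 of 20 alternatives, among them the replicate block (0.112) and leaving out CAF replicate 1 or 2 or any NDF array, with an adjusted p of 0.1005 to 0.211. Map2k1, Nras and Araf differed by 0.32, -0.34 and -0.19. Dimmer probe sets of Araf differed by 0.70, 0.66, 0.55 and -0.26, and those of Nras by -0.29 and 0.05. Of 10 p38 cascade genes none passed, with a median of 0.20, and Map2k6, a kinase that activates p38, differed by -1.31 (adjusted p = 0.519). Map2k3 and Mapk11 differed by 0.34 and 0.39. Mapkapk2, the kinase that phosphorylates tristetraprolin, differed by -0.02 and had values from 4.94 to 5.47 in CAF and from 5.27 to 5.38 in NDF. None of 8 JNK cascade genes passed either, with a median of -0.14. Mapk10, Map3k5 and Mapk8 differed by -1.30, 0.43 and -0.23, with overlapping arrays. Dimmer probe sets of Mapk10, with group means from 3.13 to 3.21, differed by -0.02 each. Those of Mapk8 differed by -0.43 to 0.30, and that of Map3k5 by 0.50. At an unadjusted p under 0.05, 0 JNK genes and 1 p38 gene differed.

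Around the decay factors, 1 of 11 other RNA-binding genes rose, 0 fell, and the median was -0.02. It was Zc3h12a, which encodes Regnase-1, an endonuclease that cuts inflammatory mRNAs. Zc3h12a was at 8.26, 8.33 and 9.23 in CAF, against 6.005, 6.53 and 6.55 in NDF, a difference of 2.24 ± 0.32 (SE, limma adjusted p = 0.0461). CAF replicate 3 was the highest, and the other probe set of Zc3h12a, a dim one, differed by 0.57. Its call was lost in 10 of 20 alternatives, with the mean of both probe sets at 1.41 (adjusted p = 0.156), the replicate block at 0.0966, and an adjusted p of 0.0729 to 0.194 without CAF replicate 1 or 2 or any NDF array. Its relative Zc3h12c differed by 1.16 (adjusted p = 0.462) by its brighter probe set and by -0.22 by its dimmer. Tial1 and Celf1, which regulate mRNA translation and splicing, differed by -0.61 and 0.15 with overlapping arrays. Dimmer probe sets of Tial1 differed by -0.22, 0.67, -0.15 and -0.07, and those of Celf1 by 0.24 to 0.34. Elavl1, which stabilises mRNAs with AU-rich elements, differed by -0.08, Hnrnpd by -0.02 and Khsrp by 0.02. Dimmer probe sets of Khsrp differed by -1.13 and -0.77 (limma adjusted p = 0.466 and 0.538 over all probe sets). Those of Hnrnpd differed by -0.21 and -0.38, and those of Elavl1 by -0.54 to 0.29. Of 24 genes for deadenylation, decapping and exonucleolytic decay none passed in limma and the median was -0.04, with 1 gene in each direction at an unadjusted p under 0.05. These were Edc4, a scaffold of decapping, at 0.52, and Lsm1, part of the ring that leads RNAs to decapping, at -0.57. Another probe set of Lsm1 differed by 0.55. The deadenylase subunit genes Cnot7 and Cnot8 differed by -0.12 and -0.29.

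Transcripts that tristetraprolin is known to bind were counted as a list of 16, many of them inflammatory genes already known to be higher in these arrays, so their count is no independent support. Of these 7 rose, 0 fell, and the median was 1.502. Those that rose were Cxcl1, Cxcl2, Il1b, Il6, Ccl3, Ptgs2 and Ier3, with differences from 1.76 for Ier3 to 7.82 for Cxcl2. Cxcl1, Cxcl2 and Il6 passed in all 20 alternatives. Without NDF replicate 2 the limma adjusted p was 0.0914 for Ptgs2, 0.107 for Ccl3, 0.107 for Il1b and 0.123 for Ier3, which left 3 of the 7 calls. The same 4 calls were lost without NDF replicate 3 (0.0612, 0.109, 0.111 and 0.161) and with the replicate block (0.0678, 0.0536, 0.0561 and 0.120). Without NDF replicate 1 Ccl3, Il1b and Ier3 were lost (0.1004 to 0.114), and without CAF replicate 2 Ptgs2 and Ier3 (0.0520 and 0.0849). Tnf, the best known target, was dim and overlapped, at 3.99, 3.89 and 4.42 in CAF, against 3.78, 3.76 and 4.22 in NDF (difference 0.18, limma adjusted p = 0.91). Csf2 and Il23a, also dim, differed by -0.14 and 0.10. Ccl2, Plaur and Fos had every CAF array above every NDF array, by 1.81 (limma adjusted p = 0.121), 0.95 (0.265) and 0.82 (0.154). Array values give the amount of a transcript and not its half-life, and mRNA decay was not measured.

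**Figure D3:**
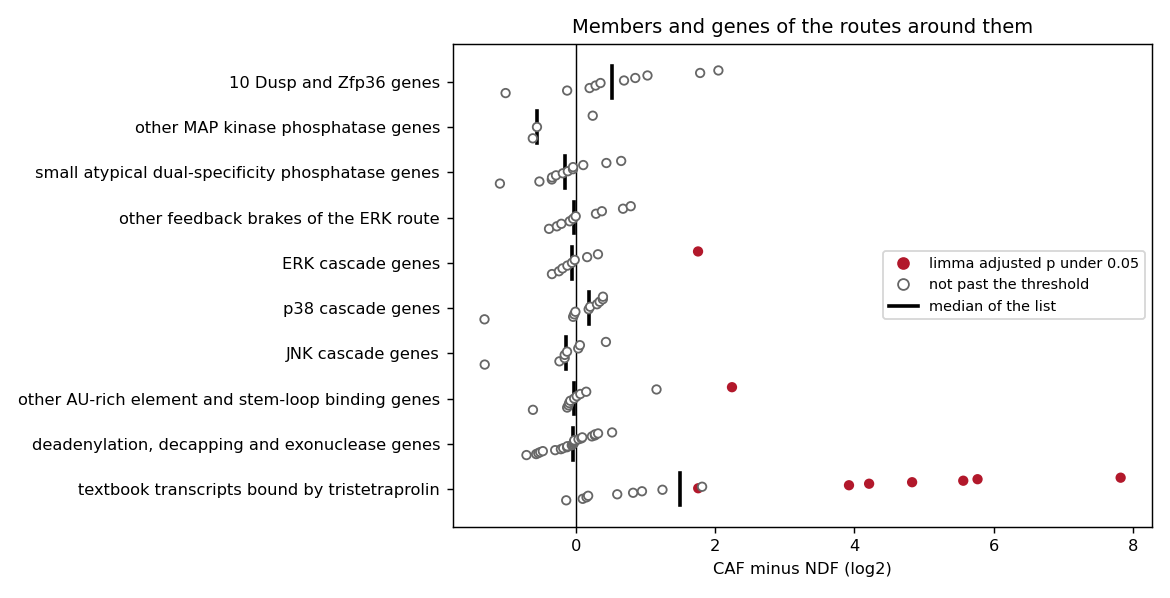
CAF minus NDF differences (log2, horizontal axis) of the 10 members and of the pathway lists, each point a gene by its brightest probe set. Red points passed the limma threshold and black bars are list medians, from -0.55 for Dusp7, Dusp8 and Dusp9 to 1.502 for tristetraprolin targets.

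The genes most like Dusp1 over the 6 arrays, by the Euclidean distance between profiles centred on their own means, were Sox13, Edrf1, Arrdc3, Egr1 and Slc18a2. The distances ran from 0.17 to 0.26 log2 units, and the differences between CAF and NDF from 0.54 for Egr1 to 0.81 for Sox13, none of them past the threshold. Those most like Zfp36 were Mmp3, Inpp5d, Slc15a3, Slain1 and Cp, at distances of 0.47 to 0.60. Their differences ran from 1.60 for Slain1 to 2.00 for Inpp5d. Mmp3, which encodes stromelysin and is made by fibroblasts, passed the threshold at 1.87 (limma adjusted p = 0.0245), and Inpp5d, a phosphatase gene of leukocytes, did not (adjusted p = 0.0633).

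The sorted cells carried fibroblast transcripts at high levels in both groups. Pdgfra, the sort marker, was at 12.66, 12.45 and 12.50 in CAF, against 12.30, 12.47 and 12.60 in NDF, and its groups overlapped. None of 13 fibroblast markers passed in limma, and their median difference was -0.28. At an unadjusted p under 0.05, 4 were lower (Col1a2, Col6a1, Col6a2 and Mfap5, by -0.52, -0.51, -0.56 and -0.74) and 1 was higher (Pi16, by 0.999). Of all genes, 4.93% were higher and 4.02% lower at that level. The arrays separated with CAF below for 4 of the 13 and for 8.66% of all genes, and with CAF above for 1 and for 6.78%. Col1a1 differed by -0.14 by its brighter probe set and by -0.97 by its other (limma adjusted p = 0.151 over all probe sets). Lists of markers of other cells, the mast cell list aside, had higher mean levels on every CAF array. The mean level of 15 macrophage and pan-leukocyte markers was 6.54 to 7.59 in CAF and 4.55 to 4.97 in NDF, and 4 of them rose, Tyrobp, Ptprc, Cd52 and Cd14. For 10 neutrophil markers the range was 7.63 to 8.69 in CAF and 4.63 to 5.45 in NDF, with 3 that rose, Clec4d, S100a8 and Trem1. Keratinocyte markers ranged from 8.83 to 10.08 in CAF and from 8.26 to 8.40 in NDF, with 0 of 13 called. Endothelial markers ranged from 6.57 to 7.48 in CAF and from 5.54 to 5.67 in NDF, with Lyve1 as the 1 of 12 that rose. T cell markers ranged from 5.22 to 6.19 in CAF and from 4.48 to 4.68 in NDF, with Cd3g as the 1 of 7 that rose. Single T cell markers differed by -1.07 to 4.05, and single neutrophil markers by -0.47 to 6.47. Mast cell markers overlapped, from 4.43 to 6.25 in CAF and from 4.22 to 4.63 in NDF, with 0 of 8 called. At an unadjusted p under 0.05, 10 macrophage and pan-leukocyte, 7 neutrophil and 8 keratinocyte markers were higher. So were 9 endothelial, 4 T cell and 3 mast cell markers, and 0 of these lists' markers were lower. The shares of all genes were again 4.93% higher and 4.02% lower. The arrays separated with CAF above for 12, 7, 10, 9, 4 and 2 markers of the lists in that order, and for 6.78% of all genes. RMA gives no value of 0, and among these markers the integrin gene Itgam stayed near the floor, at 2.86 to 3.11 in CAF and 3.04 to 3.17 in NDF. The mean over 22 immediate-early genes, which also answer to tissue dissociation, was 9.94 to 9.999 in CAF and 8.84 to 9.05 in NDF. Of these 5 rose, Btg2, Fosb, Nr4a1, Ier3 and Egr2. At an unadjusted p under 0.05, 12 of the 22 were higher, and 13 had every CAF array above every NDF array. The shares of all genes were 4.93% and 6.78%. Leukocytes and endothelial cells also express Dusp and Zfp36 genes, and the part of these cells and of dissociation in the members' differences was not tested.

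**Figure D4:**
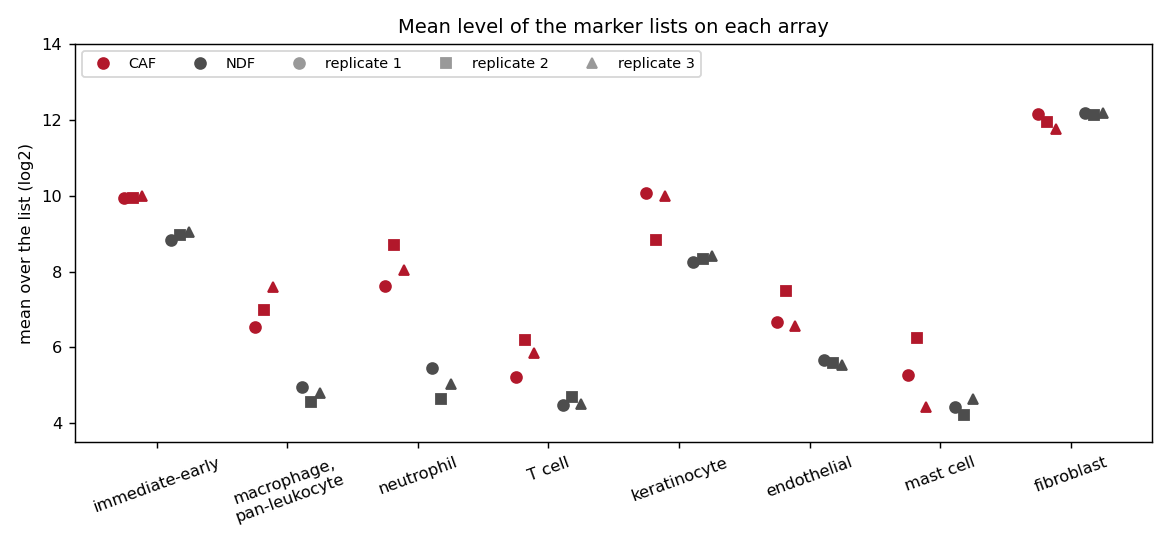
Mean log2 level of each marker list (vertical axis) on the CAF arrays (red, left) and the NDF arrays (grey, right), with symbols for replicates. Immediate-early, leukocyte, keratinocyte and endothelial lists lie higher on all CAF arrays, the mast cell list overlaps, and the fibroblast list lies between 11.75 and 12.18.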

How the data were processed

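Amplified RNA of 6 sorted fibroblast samples was hybridised to Affymetrix mouse genome arrays. The authors' deposited values are log2 expression values per probe set. GCOS and RMA are named, without versions, per the submitters' processing notes. As a method, RMA removes total intensity per array and compresses dim genes, so their differences are understated. Control probe sets (64) were left out, and 34945 of 45037 others name a single gene. Each of 18193 genes was read by its brightest probe set (mean over 6 arrays), without a filter on dim genes. The groups were compared by limma 3.58.1 in R 4.3.3 (lmFit and eBayes, two-sided, group as the only term), with Benjamini-Hochberg adjustment over all genes, and the procedure was tested on simulated data. The same fit was run on every probe set. Promoters came from RefSeq (GRCm38.p6), and plots were made in Python 3.11.15 (matplotlib 3.10.9).

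The members and gene lists were chosen with earlier results of these data known. Named were all members, the pathway genes past the threshold with up to 3 others of smallest p in each list, the marker genes past the threshold, and the 5 genes nearest in profile to Dusp1 and to Zfp36. The other pathway genes (Mapkapk2, Elavl1, Hnrnpd, Khsrp, Cnot7, Tnf, Csf2 and Il23a) and Itgam were named after their values were seen. Alternatives were a replicate block, other normalisations, filters, probe set rules, priors, array weights, a looser threshold and leaving out arrays. Those for the pathway genes were added after seeing the data. The number of arrays limits the precision.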

Additional observations from a re-analysis of the deposited data

How the results depend on the processing

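The count of members past the threshold, 0 of 10, became 1 with equal array medians, with the mean of all probe sets and at an adjusted p under 0.1 (Zfp36 each time), and 2 with an intensity trend (Zfp36 and Dusp1) and with array quality weights (Zfp36 and Dusp4). It was 0 to 1 when each array was left out in turn, with Zfp36 called without CAF replicate 3, and 0 without CAF replicate 3 and NDF replicate 1 together. Member probe sets past the threshold, 0 of 15, became 1 with the trend and 1 with the weights. Over all genes the count of 94 was 20 with the replicate block, 155 with the trend, 438 with the weights, 198 at an adjusted p under 0.1, and 5 to 156 when each array was left out. The replicate block called 0 members. Samples with the same number deviated from their group means with correlations of -0.15, 0.11 and -0.01. Those with different numbers gave -0.11 to 0.12, and 3 arrays per group cannot settle whether the numbers pair samples. The members' median difference stayed between 0.36 and 0.69 in 18 alternatives. Both ends came from settings in which only 9 members had a value, the filter at the median and the one without cross-matching probe sets. With all 10 members it ran from 0.48 to 0.64. Dusp2 ran from -0.28 to 0.07 when each array was left out, and its sign turned without CAF replicate 1 (0.067) or NDF replicate 1 (0.03). Of 198 values of single members under alternatives, 188 kept direction and side of the threshold, 8 passed it and 2 changed sign. Without probe sets whose names end in _a_at, _s_at or _x_at Zfp36 had no value, as its single probe set ends in _a_at. With the filter at the median Dusp4 had none. Causes were not tested.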
